A study of Bos taurus with 6 samples.

Results

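Mature microRNAs (miRNAs) known in cattle were measured in the intramuscular fat (IMF) of castrated and intact Chinese Qinchuan cattle. The sequences described are those listed under a bovine miRBase name whose counts summed to at least 20 over the 4 small RNA libraries. There were 444 of them, out of 793 known bovine miRNAs and 8800 sequences in the table. The other 349 known miRNAs had fewer counts. At the border lay 7 miRNAs with exactly 20 counts, among them miR-182 and miR-885, and 3 with 19, which were miR-377, miR-301a and miR-2285s.

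IMF came from the sternomandibularis muscle of males that had been weaned at 3 months and slaughtered at 24 months. The steers had been castrated surgically at 6 months and the bulls were left intact. All animals descended from one sire and received the same diet, and the sources used here name no engineered allele. There were 2 libraries of steers and 2 of bulls, named here steers 1, steers 2, bulls 1 and bulls 2 after their labels. The study's methods give RNA of 3 animals behind each library, whereas the sample descriptions give 1 head. P-values measure the spread between libraries, and whether these stand for pools or for single animals cannot be told from the sources used here.

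A miRNA is cut from a short RNA hairpin. Either arm of the hairpin, 5p or 3p, can give the mature strand, which guides Argonaute proteins to messenger RNAs and lowers their output. Pairing rests mainly on the seed, bases 2 to 8 of the mature strand, so miRNAs with the same seed are treated as a family. In adipose tissue miRNAs are known as regulators of adipocyte differentiation and lipid storage.

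The sequences below are those of the most abundant miRNAs. They were taken from the study's list of known bovine miRNAs, which gives a sequence for all 444, and are written 5′ to 3′ as DNA with the seed in capitals.
miR-10b: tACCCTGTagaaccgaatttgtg
miR-10a: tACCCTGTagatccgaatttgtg
miR-143: tGAGATGAagcactgtagctcg
miR-27b: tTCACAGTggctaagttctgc
miR-148a: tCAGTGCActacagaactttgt
miR-181a: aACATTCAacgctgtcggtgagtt
let-7i: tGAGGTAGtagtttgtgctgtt
let-7f: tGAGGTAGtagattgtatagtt
let-7a-5p: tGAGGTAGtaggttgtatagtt

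A further group is shown because its members pair base by base with one another. In each couple the second sequence is the reverse complement of the first, over the whole length or all but 1 base of the shorter.
miR-22-3p: aAGCTGCCagttgaagaactg
miR-3600: aCAGTTCTtcaactggcagctt
miR-26a: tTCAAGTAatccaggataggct
miR-26c: aGCCTATCctggattacttgaa
miR-199a-3p: aCAGTAGTctgcacattggtta
miR-3604: tAACCAATgtgcagactactgt
let-7b: tGAGGTAGtaggttgtgtggtt
miR-3596: aACCACACaacctactacctca
miR-2284z: aAAAAAGTttgtttgggttttt
miR-2285y: aAAACCCAaacaaactttttt

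The arms whose balance differed most between steers and bulls are shown as well.
miR-151-5p: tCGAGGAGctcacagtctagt
miR-151-3p: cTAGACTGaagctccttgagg
miR-193a-5p: tGGGTCTTtgcgggcgagatga
miR-193a-3p: aACTGGCCtacaaagtcccagt
miR-296-5p: gAGGGCCCcccccaatcct
miR-296-3p: gAGGGTTGggcggaggctttcc

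Lastly, these are miRNAs at the extremes of the difference between the groups.
miR-6526: tCCTGTGCctcgaatgggtatg
miR-2890: gCCCCGGCcgctcccggcct
miR-2305: cGGGGGTGgcggggaggggg
miR-211: tTCCCTTTgtcatcctttgcc
miR-2355-5p: cCCAGATAcaatggacaatatgc
miR-2339: tCACTGGAcctagcagagct
miR-223: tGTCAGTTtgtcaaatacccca
miR-147: gTGTGCGGaaatgcttctgcta

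The counts of all sequences summed to 10452582 and 8859844 in steers and to 7784227 and 6556511 in bulls. The 444 miRNAs took 92.8% and 89.7% of these counts in steers against 93.2% and 86.2% in bulls. Predicted sequences took most of the remainder, 6.79% in steers 1, 9.85% in steers 2, 6.39% in bulls 1 and 13.0% in bulls 2. Bulls 2 thus had the lowest total and the largest predicted share. Of the 444 miRNAs, 444 and 442 had a count in the steers libraries and 441 and 444 in the bulls libraries. The share of a miRNA among the counts of the 444 is used below for the make-up of a library. Since a read covers a whole mature miRNA, shares of different miRNAs were compared without a correction for length.

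A few miRNAs dominated every library, and the dominance was greater in steers. The 10 most abundant miRNAs by mean share were miR-10b, miR-143, miR-27b, let-7i, miR-26a, miR-22-3p, miR-3600, miR-148a, miR-181a and let-7f. Together they took 73.9% and 69.8% of the counts in steers, against 62.0% and 59.5% in bulls, so the groups did not overlap. MiR-143, which is abundant in smooth muscle and stromal cells, took 26.8% in steers 1, 14.6% in steers 2, 15.1% in bulls 1 and 10.4% in bulls 2. Steers 1 stood apart from the other libraries in this miRNA, and steers 2 was below bulls 1. MiR-10b, which is encoded in a cluster of Hox genes, took 22.5% and 23.1% in steers and 12.6% and 11.9% in bulls. Here the replicates lay close together and the groups were well separated. At these depths no 95% Wilson interval of such a share was wider than 0.0293 percentage points on either side, which covers counting error only.

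The number of miRNAs behind a given share of the counts differed between the groups in the same way. To reach 50% of the counts, 3 and 5 miRNAs were needed in steers and 6 and 7 in bulls. For 90% the numbers were 27 and 30 against 36 and 38, and for 99% they were 83 and 89 against 100 and 106. The effective number of miRNAs, the exponential of the Shannon entropy of the shares, was 18.3 and 24.1 in steers and 32.2 and 35.5 in bulls. The less abundant 222 miRNAs of a library took between 0.0555% and 0.112% of its counts. With 2 libraries a side, these values are a description without a test. They include the reverse-complement entries described below, which held a larger share of the counts in bulls.

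Of the 444 mature sequences, 182 (41.0%) began with U, a base that Argonaute proteins are known to favour at the 5′ end. Weighted by counts, sequences beginning with U made up 82.6% and 77.6% in steers and 72.1% and 69.3% in bulls. Both miR-10b and miR-143 begin with U. The sequences had a median length of 22 bases (range 17 to 27) and a median GC content of 47.8% (range 22.7 to 95%).

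The 444 miRNAs fell into 366 seed families, of which 320 had 1 member, 33 had 2 and 13 had 3 or more. The 10 largest families by counts took 82.0%, 78.6%, 73.0% and 71.2% in steers 1, steers 2, bulls 1 and bulls 2. The miR-10 family, miR-10b and miR-10a, was the largest at 24.5% and 24.9% in steers and 14.7% and 13.9% in bulls. MiR-10a took 8.08% and 7.28% of this family in steers and 14.1% and 14.3% in bulls, so the replicates were close and the member with the smaller part was relatively more frequent in bulls. The let-7 family, regulators of differentiation that all carry the seed GAGGTAG, was the family with the most members, 9, and took 10.1%, 13.8%, 9.66% and 11.7% of the counts. Its groups overlapped.

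**Figure D1:**
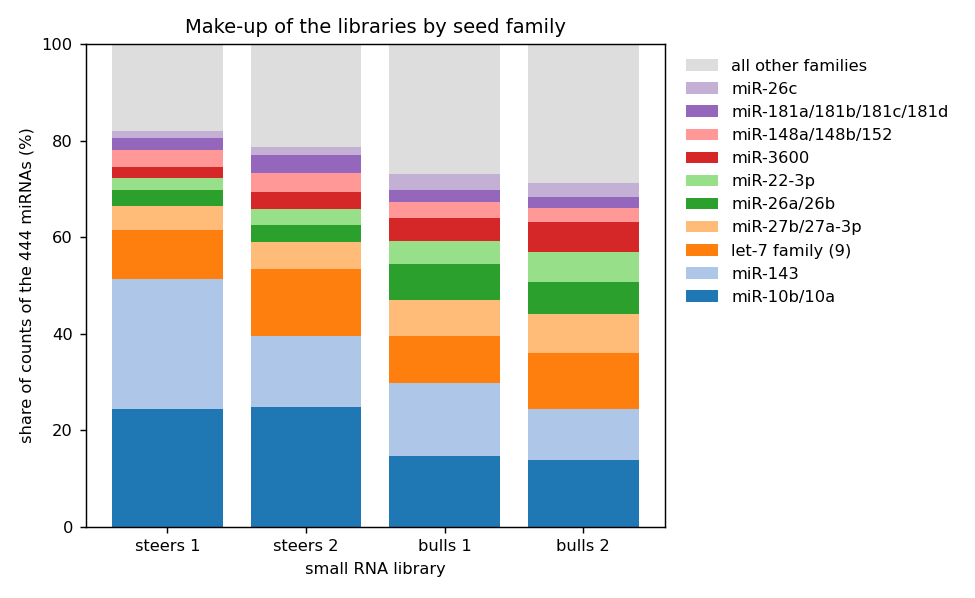
Share of the counts of the 444 miRNAs (vertical axis, %) taken by the 10 largest seed families, coloured, and by all other families, grey, in each of the 4 libraries (horizontal axis). The 2 lowest segments, the miR-10 family and miR-143, shrink from steers to bulls, and the grey segment of all other families is larger in both bulls libraries.

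Within the let-7 family let-7i led in every library, followed by let-7f and let-7a-5p in either order. Let-7i made up 45.6% and 50.8% of the family's counts in steers against 37.5% and 34.1% in bulls. Let-7f made up 19% and 18.4% in steers and 24.1% and 24.6% in bulls, and let-7a-5p between 17.4% and 22.4% in all 4 libraries. Let-7d, at 0.423% and 0.377% in steers and 1.09% and 1.18% in bulls, was the rarest member in steers. Let-7b, let-7c, let-7e, let-7g and miR-98 made up the rest.

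The miR-30 family, of which several members are known to act in adipocyte differentiation, showed a similar shift among its 6 members. MiR-30a-5p made up 61.7% and 54.9% of its counts in steers against 45.1% and 39.3% in bulls, and miR-30e-5p 6.87% and 6.27% against 14.7% and 14.1%. By contrast, miR-181a made up between 94.4% and 95.5% of the 4-member miR-181 family in every library. Of the miR-192/215 family, miR-192 made up between 95.8% and 96.9%.

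Some of the abundance was carried by entries that are reverse complements of each other. Over at least 16 bases there were 20 such pairs with 32 miRNAs, and 15 of these pairs matched over all but at most 1 base of the shorter sequence. In 5 of the 15 the counts of the partners were within 10% of each other in every library. MiR-22-3p had 225656, 274445, 345833 and 350992 counts in steers 1, steers 2, bulls 1 and bulls 2, and miR-3600 had 224298, 274162, 345902 and 351265. Their ratio stayed between 0.994 and 1.00. Let-7b had 27520, 27356, 22074 and 20867 counts, and miR-3596, its exact reverse complement, had 27647, 27086, 22126 and 20916. The ratios were 0.978 to 1.02 for miR-152 and miR-2957, 0.959 to 1.04 for miR-6529a and miR-6529b, and 0.938 to 0.959 for miR-199a-3p and miR-3604.

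MiR-26c had 0.497 to 0.50 of the counts of miR-26a in every library, and the study's list gives 1 hairpin for miR-26c and 2 for miR-26a. Other ratios below 1 varied more between libraries. MiR-2285u had 0.140 to 0.195 of the counts of miR-2284y, with 1 and 7 hairpins listed. MiR-2285y had 0.0602 to 0.120 of those of miR-2284z, again with 1 and 7. The remaining pairs of near full length were miR-3604 with miR-199c, miR-193a-3p with the entry named miR-193a, miR-2285q with miR-2285z, miR-2284aa with miR-2285y, miR-382 with miR-3578, miR-2285g with miR-2285af and miR-542-5p with miR-3601. Shorter stretches of 16 or 18 bases joined miR-3596 to let-7a-5p and let-7c, miR-2284x to miR-2285o and miR-2285u, and miR-2284y to miR-2285o.

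The use of strand in the counting is not given in the sources used here, so reads of a miRNA and of its reverse complement cannot be told apart. When every set of near full-length reverse complements was represented by its most abundant member, 15 entries dropped out. They held 4.70% and 6.09% of the counts in steers against 10.1% and 11.9% in bulls. Identical sequences were not always given identical counts either. The entries miR-129 and miR-129-5p have the same 22 bases, yet the former had 10, 9, 8 and 6 counts and the latter 15, 7, 2 and 1.

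**Figure D2:**
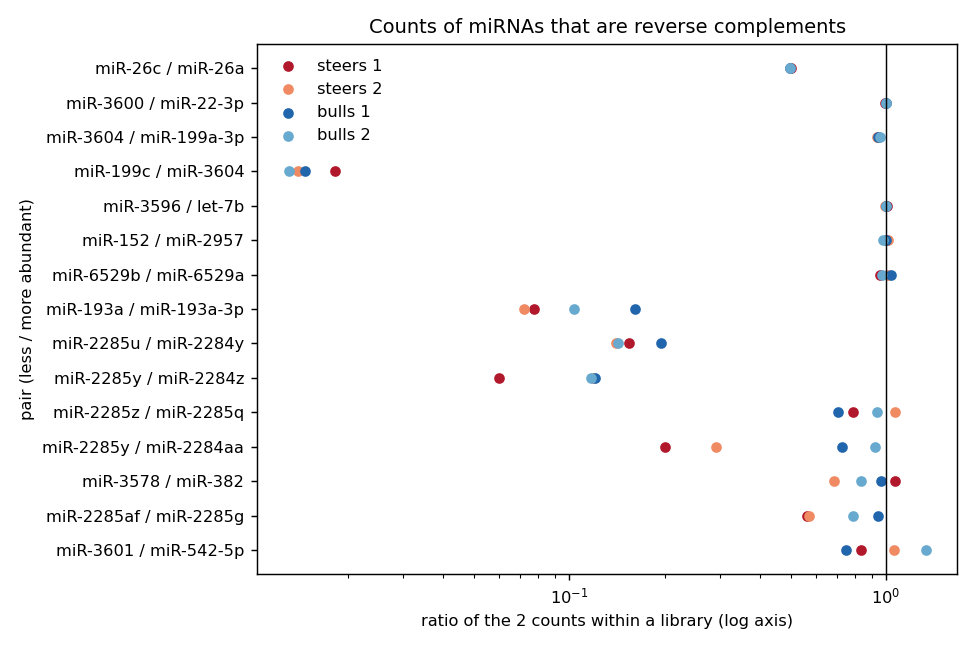
Ratio of the counts of the less to the more abundant miRNA (horizontal log axis) for the 15 pairs that are reverse complements over all but at most 1 base (vertical axis), with 1 point per library. The 4 points of miR-26c/miR-26a coincide near 0.5 and those of miR-3600/miR-22-3p near 1, while pairs with few counts, such as miR-3601/miR-542-5p from 0.750 to 1.33, are spread out.

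Both arms of a hairpin were among the 444 miRNAs for 37 hairpins, with 74 members in all. Arms were taken from the names, which give 5p for 47 miRNAs, 3p for 50 and no arm for 347. The study's list gives 3 hairpins for let-7a-5p and 1 for let-7a-3p. It gives 2 for each arm of miR-199a, and 1 and 2 for miR-365-5p and miR-365-3p. The arm ratios of let-7a, miR-199a and miR-365 thus do not belong to 1 hairpin each. The 5p arm had more counts in all 4 libraries for 20 hairpins and the 3p arm for 11, and the leading arm varied between libraries for 6. In 10 hairpins the 5p arm took over 90% in every library and in 3 it took under 10%. The ratio of the arms within a library does not depend on how the libraries are scaled.

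The 5 most one-sided hairpins by mean log2 arm ratio kept their leading arm in every library. MiR-22 gave 0.0810%, 0.0393%, 0.0379% and 0.0390% of its counts from the 5p arm in steers 1, steers 2, bulls 1 and bulls 2. MiR-27a gave between 0.273% and 0.427%. At the other end, miR-21, a miRNA found in most tissues, gave 99.7% in every library, let-7a between 99.8% and 99.9%, and miR-30b between 99.3% and 99.8%. The most balanced were miR-2483, miR-369, miR-455, miR-2411 and miR-760, with mean log2 ratios of 5p to 3p of 0.05, -0.21, 0.25, 0.28 and -0.43.

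Arm use differed between steers and bulls for 11 of the 37 hairpins (29.7%) at an adjusted p under 0.05 in edgeR's quasi-likelihood test of the arm ratio, and 17 had an unadjusted p under 0.05. The balance lay more toward the 3p arm in steers for 7 of them and more toward the 5p arm for 4, and 6 differed by over 1 on the log2 scale. When the fit was limited to the 34 with 1 listed hairpin for each arm, 9 were called, 7 toward the 3p arm and 2 toward the 5p arm. In 22 of the 37 hairpins the 5p shares of the groups did not overlap. Beside this stand 58.2% of all sequences tested below, whose levels did not overlap between the groups. The median absolute difference of the log2 arm ratio was 0.43 between the steers libraries and 0.33 between the bulls libraries, against 0.66 to 1.00 between libraries of different groups.

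The clearest case was miR-151, which is encoded in an intron of the focal adhesion kinase gene PTK2. The 5p arm had 27049 and 23726 counts in steers against 56068 and 42467 in bulls. The 3p arm had 74065 and 87062 in steers and 41085 and 26611 in bulls. The 5p share was thus 26.8% and 21.4% in steers and 57.7% and 61.5% in bulls, so the leading arm changed between the groups. The log2 arm ratio was lower in steers by 2.23 (steers minus bulls -2.23, SE 0.25, adjusted p = 5.9e-06 by edgeR). Neither arm passed the test singly, with log2 fold changes of -0.94 for 5p (adjusted p = 0.173 by edgeR) and 1.25 for 3p (adjusted p = 0.0521 by edgeR). MiR-151-5p shares a run of 16 bases with miR-28, and how reads that match several entries were assigned is not given in the sources used here.

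MiR-193a, far less abundant here than miR-151, showed the next largest difference. Its 5p arm had 141, 115, 191 and 153 counts in steers 1, steers 2, bulls 1 and bulls 2, and its 3p arm 1062, 556, 229 and 231. The 5p share was 11.7% and 17.1% in steers and 45.5% and 39.8% in bulls, without overlap. The difference of the log2 ratio was -2.17 (SE 0.35, adjusted p = 0.00024 by edgeR). Taken singly, the 3p arm was called upregulated in steers at 1.87 and the 5p arm was not called at -0.40.

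MiR-296, encoded near the imprinted GNAS locus, had a 5p share of 5.73% and 2.73% in steers and 14.0% and 16% in bulls (difference -2.08, SE 0.42, adjusted p = 0.0011 by edgeR). MiR-331 had 6.70% and 10.7% against 22.8% and 19.6%, a difference of -1.54 with an SE of 0.32. In miR-142, found in blood cells, the 5p share was 95.2% in both steers libraries and 97.4% and 97.5% in bulls, a difference of -0.96. MiR-30b at -1.31 and miR-99a at -0.52 also lay more toward the 3p arm in steers.

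Toward the 5p arm in steers lay let-7a at 1.49, miR-126 at 0.99, miR-199a at 0.81 and miR-423 at 0.56. MiR-126, which is encoded in the endothelial gene EGFL7, had a 5p share of 89.8% and 89.2% in steers and 80.9% and 81.4% in bulls, with replicates less than 1 percentage point apart. Of the 22 arms of these 11 hairpins, miR-126-3p, miR-142-5p and miR-193a-3p were called singly. When 1 library at a time was left out, miR-142, miR-151 and miR-193a were called in all 4 fits, while miR-99a was called in 0, miR-199a and miR-423 in 1, let-7a and miR-126 in 2 and the other three in 3. Without bulls 1 and without bulls 2 all called hairpins lay toward the 3p arm in steers, so the calls toward the 5p arm were lost in both fits. The 11 kept their direction in every alternative in which they could be fitted. Their 5p shares did not overlap between the groups, so leaving out a library could hardly turn them.

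**Figure D3:**
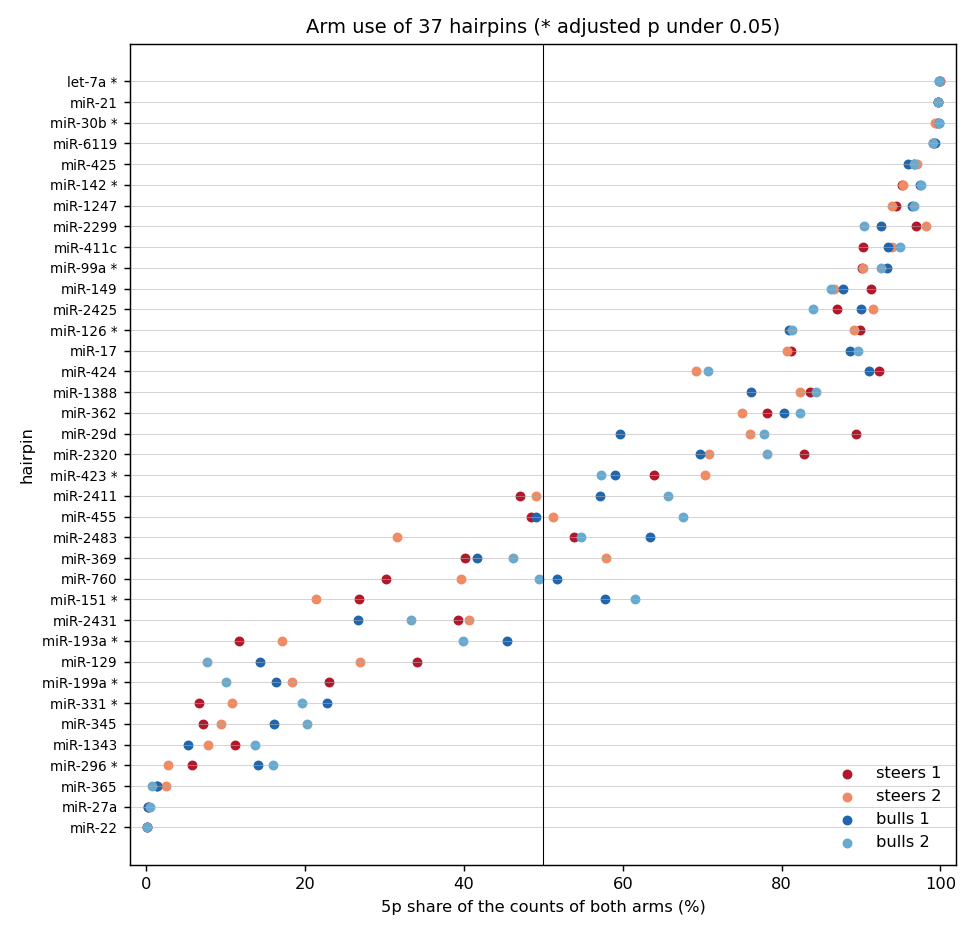
Share of the 5p arm among the counts of both arms (horizontal axis, %) for 37 hairpins (vertical axis, ordered by mean log2 arm ratio), with 1 point per library and an asterisk at an adjusted p under 0.05. In miR-151 and miR-193a the red points of steers lie well to the left of the blue points of bulls, whereas for miR-21 and miR-22 the 4 points coincide at the ends of the axis.

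For comparisons of levels the libraries were scaled with TMM factors from all sequences tested, and levels are given as CPM, counts brought to a common scaled library total. The factors were 0.746 and 0.968 in steers and 0.972 and 1.42 in bulls. The median absolute log2 difference between replicates over the 444 miRNAs was 0.43 in steers and 0.57 in bulls, and 62 (14.0%) and 65 (14.6%) miRNAs were over 2-fold apart. Pairs of libraries from different groups had medians from 0.66 to 0.84 and 127 to 187 miRNAs over 2-fold apart. Across miRNAs, Pearson's r of the log2 levels was 0.985 in steers and 0.988 in bulls and between 0.95 and 0.971 across the groups. These correlations are a description, since miRNAs of a library are not independent.

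In bulls most of the gap was a shift shared by most miRNAs. Only 90 of 444 were higher in bulls 2 than in bulls 1, and the median difference was -0.49. With factors from the 444 miRNAs alone the median absolute difference fell to 0.32 in bulls and 0.38 in steers, and the median shift in bulls was -0.09. In steers the replicate gap was smaller for abundant miRNAs, with a median of 0.65 for the 126 miRNAs with under 100 counts in all, 0.48 for 139 miRNAs from 100 to under 1000, 0.37 for 90 from 1000 to under 10000 and 0.33 for 89 with 10000 or more. In bulls the medians were 0.67, 0.56, 0.56 and 0.56.

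Among the 122 miRNAs with a mean of at least 100 CPM, the 5 with the farthest replicates were miR-145, miR-2890, miR-146b, miR-143 and miR-30a-5p. MiR-145 had 803 and 221 CPM in steers and 424 and 234 in bulls. MiR-143, which is encoded beside miR-145, had 334203 and 135880 CPM in steers and 144533 and 63300 in bulls. For both miRNAs the first library of each group was the higher, and the groups overlapped. MiR-2890 had 148 and 476 CPM in steers and 12.3 and 14.7 in bulls. MiR-146b, known from inflammatory signalling, had 134 and 156 CPM in steers and 220 and 70.6 in bulls, so the bulls libraries enclosed those of steers. MiR-30a-5p had 12442 and 7499 CPM in steers and 9715 and 4282 in bulls.

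In 17 miRNAs the replicates were over 2-fold apart in both groups, and in 13 of these replicate 2 differed from replicate 1 in the same direction. The replicate differences varied with GC content. For the 94 miRNAs with under 40% GC the median log2 difference of replicate 2 to replicate 1 was -0.42 in steers and -0.55 in bulls. It was -0.24 and -0.52 from 40 to 50% GC, and -0.14 and -0.56 from 50 to 60%. For the 88 with 60% or more it was 0.18 and 0.03, so in bulls only this highest range stood apart. MiR-105b, chosen after its values were seen, had 10 and 125 counts in steers, 9 and 158 in bulls.

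**Figure D4:**
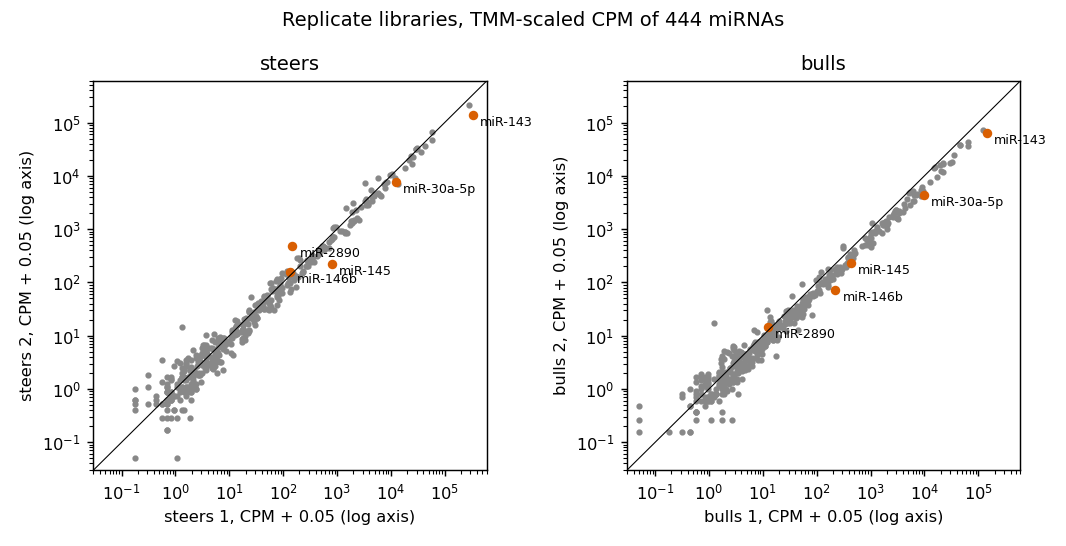
TMM-scaled level of the 444 miRNAs (CPM + 0.05, log axes) in replicate 1 (horizontal) and replicate 2 (vertical) of steers (left) and bulls (right), with the line of equality. Most points of bulls lie below the line, and the 5 orange points are the abundant miRNAs with the farthest replicates, of which miR-143 lies below the line in both groups.

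Steers and bulls were compared in a single edgeR fit over the 1073 sequences that passed the filter on low counts, 396 of them from the 444. Calls needed an adjusted p below 0.05 and a log2 fold change beyond 1 or -1. There were 20 upregulated and 30 downregulated miRNAs in steers, and 105 had an unadjusted p under 0.05. These are 5.05% and 7.58% of the 396, beside 7.08% in each direction over all 1073 sequences, which include the 396. In 235 of the 396 (59.3%) the groups did not overlap, beside 58.2% of all sequences. The median log2 fold change was -0.15 over the 396 and -0.07 over all sequences. Scaling by total counts moved the median of all sequences to -0.56, and turned the direction of 74 miRNAs. None of these was called, but calls lay beyond 1 or -1, farther from 0 than this shift could turn. With that scaling edgeR called 0, where 152 had an unadjusted p under 0.05.

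The number of calls depended on the library left out. It was 18 without steers 1, 5 without steers 2, 51 without bulls 1 and 45 without bulls 2, of which 14, 5, 25 and 32 were among the 50. Without bulls 1 the split was 42 up and 9 down, and without bulls 2 it was 8 and 37. A fit of the 444 miRNAs alone called 83, which included 48 of the 50, with 51 up and 32 down. The upregulated share was then 61.4% instead of 40%, and with upper-quartile scaling it was 57.1%. Of the 50, 5 were called whichever library was left out, 6 in 3 of these fits, 6 in 2, 26 in 1 and 7 in 0.

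Among the upregulated miRNAs were those at both ends of the range of abundance. MiR-10b, at 280152 and 214131 CPM in steers and 121296 and 72175 in bulls, was called at 1.35 on the log2 scale (SE 0.40, adjusted p = 0.0123 by edgeR). The groups did not overlap. MiR-143 was called at 1.18 (SE 0.40, adjusted p = 0.0321 by edgeR), but as given above its groups overlapped, and it was the only one of the 50 of which this was true. Both miR-10b and miR-143 were called without bulls 1 and in no other fit that left out 1 library. MiR-2890 and miR-2305, bovine entries of 90% GC, rose by 4.53 and 3.14 on the log2 scale. MiR-2305 had 40 and 90 counts in steers against 5 and 10 in bulls.

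The other large rises belonged to rare miRNAs. MiR-6526 had 29 and 86 counts in steers against 3 and 1 in bulls, a scaled ratio of 29.7 with a 95% counting interval of 11.3 to 111. Steers 2 had the most counts, and both steers libraries lay far above bulls. MiR-211, a relative of miR-204 encoded in the melanocyte gene TRPM1, had 25 and 57 counts against 7 and 6 (log2 fold change 2.65, SE 0.64). MiR-375, known from pancreatic islets, had 25 and 51 against 7 and 12 (2.03, SE 0.61). MiR-2427 had 18 and 37 against 6 and 5, and miR-2461-3p 12 and 30 against 4 and 8. In each of these steers 2 was the highest library. MiR-542-5p with 18 and 17 counts against 4 and 3, and its reverse complement miR-3601 with 15 and 18 against 3 and 4, had scaled ratios of 5.16 (2.26 to 13.8) and 4.87 (2.12 to 13.0), and their reads cannot be told apart. MiR-193a-3p, at 136 and 64.9 CPM against 30.3 and 24.8, was the most abundant of the 10 largest rises after miR-2890.

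The remaining 10 upregulated miRNAs had log2 fold changes from 1.18 to 1.77. Besides miR-10b and miR-143 they were miR-192 and miR-215, which share a seed and are known as targets of p53, miR-486, miR-2284x, miR-2285o, miR-502b, miR-1249 and miR-7863. MiR-2284x and miR-2285o are reverse complements over 18 bases.

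The largest falls were likewise found in rare miRNAs. MiR-2355-5p had 1 and 0 counts in steers against 18 and 19 in bulls, a scaled ratio of bulls to steers of 35.8 with a 95% counting interval of 6.04 to 1453. MiR-2339 had 1 and 3 against 29 and 25 (ratio 13.1, interval 4.82 to 49.7), and miR-490 had 5 and 1 against 25 and 27 (ratio 8.39, interval 3.61 to 23.9). Counts in both steers libraries were close to 0, and since miRNAs were named only where the groups did not overlap, the separation of the groups was set by that choice.

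Blood-cell miRNAs were among the falls with more counts. MiR-223, which is abundant in myeloid cells, had 41 and 23 counts in steers against 223 and 281 in bulls, with a log2 difference of -2.91 (SE 0.56, adjusted p = 1.5e-05 by edgeR). MiR-147, known from macrophages, had 37 and 21 against 204 and 173 (-2.66, SE 0.56). Both were called except without steers 2, where the adjusted p by edgeR was 0.111 and 0.160.

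MiR-2284z, with 83 and 59 counts against 440 and 400, and its reverse complement miR-2285y, with 5 and 7 against 53 and 47, fell by 2.53 and 3.01. MiR-671 had 12 and 7 against 43 and 53. MiR-582 had 5 and 1 against 12 and 18, and miR-141, a member of the epithelial miR-200 group, had 6 and 6 against 30 and 22.

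The other 20 downregulated miRNAs ranged from -2.0 to -1.40. They were miR-2284t-3p, miR-224, miR-2483-5p, miR-451, miR-3613a, miR-499, miR-665, miR-2891, miR-338, miR-411c-5p, miR-142-5p, miR-33b, miR-874, miR-190a, miR-454, miR-136, miR-106b, miR-185, miR-1 and miR-126-3p. The downregulated miRNAs had a median GC content of 40.5% and the upregulated ones of 52.2%, beside 47.8% over the 444. The median log2 fold change was -0.61 below 40% GC, -0.12 from 40 to 50%, 0.04 from 50 to 60% and -0.01 from 60%, so the lowest range stood apart. Replicate differences also varied with GC content, and the part of GC content in the calls was not tested.

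Of the 20 miRNAs with the largest rises and falls, 5 were called whichever library was left out, namely miR-6526, miR-2890, miR-2305, miR-2339 and miR-2285y. MiR-542-5p, miR-3601, miR-2461-3p, miR-582 and miR-141 were called in 0 of these leave-one-out fits.

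**Figure D5:**
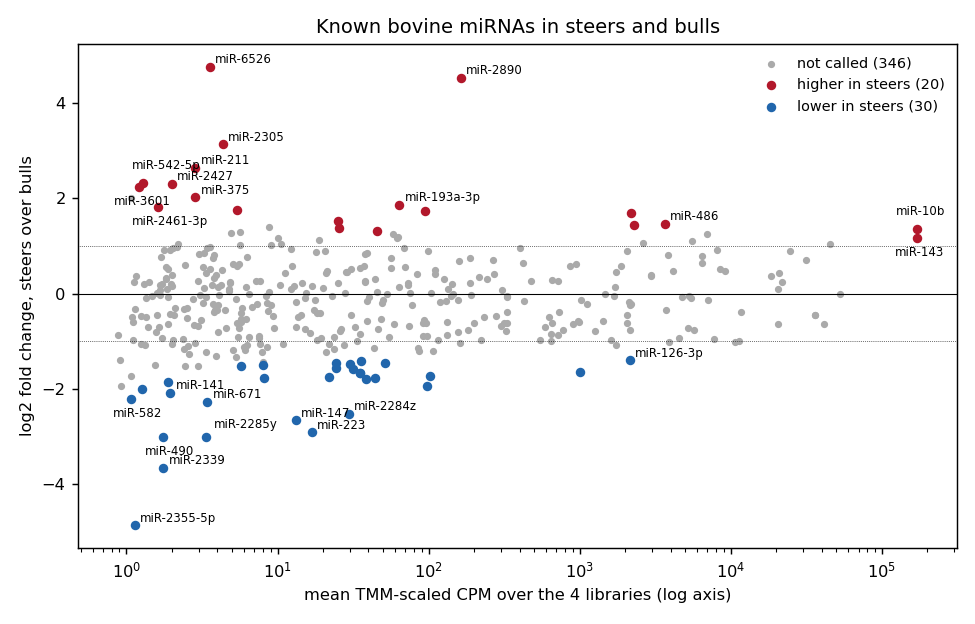
Log2 fold change of steers over bulls (vertical axis) against the mean TMM-scaled CPM of the 4 libraries (horizontal log axis) for the 396 miRNAs tested, with the 20 called higher in steers in red, the 30 called lower in blue and dotted lines at 1 and -1. The largest rises and falls lie mostly at a few CPM, while miR-10b and miR-143 lie at the far right.

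Summed by seed, 326 families passed the filter, and 21 were upregulated and 28 downregulated in steers, 15% in all, while 97 had an unadjusted p under 0.05. Of the 49 called families 44 had a single member. The miR-10 family was called at 1.25 (SE 0.45, adjusted p = 0.0418 by edgeR), the miR-192/215 family at 1.45 (SE 0.45, adjusted p = 0.0137 by edgeR) and the family of miR-2284y and miR-2284b at 1.24 (SE 0.44, adjusted p = 0.0383 by edgeR). Downregulated were the family of miR-33b and miR-33a, which are encoded in introns of the SREBF genes and known to restrain cholesterol efflux, at -1.53 (SE 0.45, adjusted p = 0.00967 by edgeR), and that of miR-2284z and miR-2284aa at -2.30 (SE 0.47). MiR-33b had 155 and 98 counts in steers against 432 and 345 in bulls, and miR-33a 28 and 22 against 59 and 58, so neither overlapped. All 5 families lost their call when either steers library was left out. The 3 upregulated ones also lost it without bulls 2 and the miR-33 family without bulls 1 (adjusted p = 0.059 by edgeR). For the miR-10 family the adjusted p by edgeR was 0.619 without steers 1, 0.562 without steers 2 and 0.0997 without bulls 2, and 0.0731 with reverse-complement sets represented by 1 entry, and its log2 fold change was 0.81 with total counts. The number of called families was 14 without steers 1 and 4 without steers 2.

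Of the 13 families with 3 or more members 0 were called by edgeR and 0 by DESeq2, and 1, the miR-181 family, had an unadjusted p under 0.05. In 8 the log2 fold change was above 0 and in 5 below, and scaling by total counts turned 5 of them. The let-7 family stood at 0.63 (SE 0.45, adjusted p = 0.338 by edgeR). Within it let-7i was at 1.05 (adjusted p = 0.0808 by edgeR) and let-7d at -0.86 (adjusted p = 0.248 by edgeR), so no member was called. The miR-181 family was at 0.90, the miR-148/152 family at 0.69 and the miR-34/449 and miR-2285e families at 0.39 each. The miR-130/miR-301b/miR-454, miR-2284ab and miR-30 families were at 0.22, 0.11 and 0.06.

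Below 0, and likewise not called, were the other 5 families. The miR-17/93/106 family was at -0.77, the miR-92/25/32 family at -0.80, and the miR-29 family, which targets collagen genes, at -0.65. The miR-15/16 family with 7 members was at -0.39 and the miR-99/100 family at -0.31. All 5 stayed below 0 with total counts. For the families of miR-30, miR-130/miR-301b/miR-454, miR-34/449, miR-2284ab and miR-2285e the sign turned to negative with that scaling.

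MiRNAs known as markers of other cell types were present in these IMF libraries. No list was tested as a whole, and the calls of its members are read beside the 12.6% of all 396 miRNAs called in either direction. In a bulk library a change in the number of cells of a type and a change in their RNA cannot be told apart. Of the 7 skeletal muscle miRNAs 6 were among the 444, and their summed level was 2208 and 3377 CPM in steers and 5842 and 5394 in bulls, without overlap. MiR-1 and miR-499 were called downregulated at -1.42 and -1.76, and the list's median was -1.02. MiR-133a, the most abundant of the list, had 15741 and 26774 counts in steers against 40409 and 46507 in bulls and was not called at -1.01 (adjusted p = 0.145 by edgeR). MiR-208a had 0, 0, 4 and 2 counts and was not among the 444.

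All 7 immune miRNAs were measured, with a summed level of 1510 and 1243 CPM in steers and 3833 and 1893 in bulls. Downregulated calls among the 7 were miR-142-5p and miR-223, and 0 were upregulated. The erythroid list moved in both directions. MiR-451, the red-cell miRNA that matures without Dicer, fell by 1.79, with 175 and 104 counts in steers against 521 and 475 in bulls, and miR-144, encoded beside it, stood at -1.94 (adjusted p = 0.0803 by edgeR). MiR-486, which is also expressed in muscle, was called upregulated at 1.47, with 26327 and 62923 counts against 16461 and 15905. Because miR-486 dominated the list, its sum was 3401 and 7360 CPM in steers and 2248 and 1757 in bulls.

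Of 7 epithelial miRNAs miR-141 alone was among the 444, at 0.770 and 0.701 CPM in steers and 3.97 and 2.36 in bulls. The endothelial list, both arms of miR-126, summed to 14793 and 7863 CPM against 21298 and 11456, and overlapped. The stromal and smooth muscle list was dominated by miR-143 and summed to 345438 and 145309 CPM against 164121 and 79919, with overlap. Of the 5 stromal miRNAs miR-143 was called, while miR-199a-3p stood at -1.0 and miR-145 at 0.64. The liver miRNA miR-122 was not among the 444. Of the neural miRNAs miR-9-5p was at 11.5 and 4.2 CPM against 17.6 and 4.18. The part of these lists in the differences between the groups was not tested.

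Among 16 miRNAs known from work on adipocytes 1 was called upregulated and 1 downregulated, miR-211 and miR-33b, and the median log2 fold change was -0.23. These 2 of 16 are a share close to that of all 396 miRNAs tested. Summed, they took 150596 and 125226 CPM in steers and 175112 and 106748 in bulls, so the groups overlapped. MiR-103, which is known to act on insulin sensitivity, had 21671 and 22046 counts in steers against 12731 and 11157 in bulls, with a log2 difference of 0.89 (adjusted p = 0.214 by edgeR). MiR-378, encoded in the PPARGC1B gene, had 33975 and 46897 counts against 25735 and 20644 (0.81, adjusted p = 0.251 by edgeR). MiR-27b, known to hold back adipocyte differentiation through PPARG, was at -0.01 (SE 0.42), and miR-26a at -0.64 (SE 0.43). Of the others miR-107, miR-148a, miR-130a and miR-193b stood at 0.70, 0.71, 0.27 and 0.07, and miR-27a-3p, miR-130b, miR-204, miR-335, miR-365-3p and miR-33a at -0.75, -0.44, -0.85, -0.97, -0.59 and -1.18.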

How the data were processed

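Small RNA of IMF was sequenced on an Illumina HiSeq. According to the study's methods, the authors removed adaptors, short and low-quality reads, then mapped reads with BWA against miRBase 21 and the genome of cattle. Additional miRNAs were predicted by miRDeep, and leftover reads were compared with those of human, mouse and rat. The submitters' processing notes name a human genome build. The deposited values are raw counts per mature sequence, without normalization. Treatment of reads that match several entries is not given in the sources used here. All 4 libraries were used, and the mRNA libraries were not analysed here.

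All sequences passing filterByExpr were fitted in edgeR 4.0.16 (R 4.3.3) by the quasi-likelihood test on group (glmQLFit, glmQLFTest), scaled with TMM and with Benjamini-Hochberg adjustment. SE is the size of the log2 fold change over the square root of F. Family sums used the same scaling. Arm use was tested on 5p and 3p counts of each library, with terms for library, arm and arm by group, for hairpins with at least 20 counts on each arm. Ratios of rare miRNAs have 95% Clopper-Pearson intervals, which cover counting error only. Replicate differences are log2 of counts plus 0.5. The tests were tested on simulated data.

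Alternatives were other scalings and filters, DESeq2 1.42.0, limma-voom (limma 3.58.1), reverse-complement sets represented by 1 entry, seed bases 2 to 7, the replicate number as a block and leaving out each library. Replicate agreement under factors from known miRNAs alone was added after seeing the data. Members, marker lists and rules were chosen with earlier results of these data known. The miRNAs named are the 10 most abundant, the 10 largest rises and falls among called miRNAs whose groups did not overlap and with at least 10 counts in 2 libraries, all reverse-complement sets over 16 bases, all families called or of 3 or more members, all hairpins called with the 5 most one-sided and 5 most balanced, the 5 with the farthest replicates among those of at least 100 CPM, and the marker lists.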

Additional observations from a re-analysis of the deposited data

How the results depend on the processing

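The 50 called miRNAs, the 5 called families of 2 or more members and the 11 called hairpins kept their direction in every alternative in which they were fitted. For the miRNAs this was largely set by the calls. The groups did not overlap in 19 of the 20 upregulated and all 30 downregulated ones, so leaving out a library could hardly turn them. Of the values of the 20 largest rises and falls 191 kept their side of the threshold and 75 did not. For those families the numbers were 33 and 17, and for the hairpins 57 and 28. Of the 13 families with 3 or more members, which were not called, 5 turned direction with total counts. The count of 50 called miRNAs (20 up, 30 down) became 0 with total counts, 22 without a filter on low counts (7 up, 15 down) and 83 for known miRNAs alone (51 up). With a minimum of 100 counts 13 were up. Leaving out a library gave 5 to 51 calls, 3 to 42 up and 2 to 37 down. Of the 49 called seed families, total counts gave 97 and leaving out a library 4 to 46. Of the 11 called hairpins leaving out a library left 6 to 8.

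The mean share of the 10 most abundant miRNAs was 71.9% in steers and 60.8% in bulls. It became 65.6% and 54.5% with all sequences as the denominator, and 75.0% and 64.9% with reverse-complement sets taken as 1. Divided by the number of listed hairpins it was 66.0% in bulls. The median absolute log2 replicate difference, 0.43 in steers and 0.57 in bulls, became 0.40 and 0.29 with total counts, 0.38 and 0.32 with factors from known miRNAs alone, 0.39 and 0.56 at 100 or more counts and 0.35 and 0.56 at 1000 or more. The causes were not tested.

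Nothing in the labels ties libraries of equal replicate number together, and whether such libraries share a handling step was not tested. Across the 444 miRNAs, the differences of replicate 2 to replicate 1 in steers and in bulls had a Pearson's r of 0.41. With the replicate block 88 miRNAs were called (33 up, 55 down), among them all 50, along with 79 families and 8 hairpins. Depth limited the rarest miRNAs, since 48 of the 444 did not pass the filter.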
